A study of Mus musculus with 7 samples.

Results

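The transcripts of 9 genes that encode leukocyte adhesion molecules and ligands of the checkpoint receptor PD-1 were followed in neutrophils and in monocytes/macrophages of the infarcted mouse heart. The genes were Selplg, Cd44, Icam1, Itgal, Itgam, Itgb2, Itga4, Cd274 and Pdcd1lg2, chosen by symbol, and all 9 were listed in each of the 7 matrices, among 27514 genes that the matrices shared. All 9 passed the filter on low counts in both cell classes.

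Leukocytes leave the blood in steps. P-selectin glycoprotein ligand 1, the product of Selplg, and suitably glycosylated CD44 let them roll on selectins of the vessel wall. Integrins then hold them firmly: the chains encoded by Itgal (CD11a) and Itgam (CD11b) each pair with the beta2 chain encoded by Itgb2 (CD18) and bind ICAM-1, whereas the alpha4 chain encoded by Itga4 (CD49d) pairs with beta1 and binds VCAM-1. Icam1 encodes ICAM-1 itself, which activated leukocytes also carry, and CD44 binds hyaluronan of the matrix. Cd274 and Pdcd1lg2 encode PD-L1 and PD-L2, the ligands through which myeloid cells restrain T cells that carry PD-1.

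Heart leukocytes were isolated by enzymatic digestion of the infarct with its border and neighbouring myocardium after permanent ligation of the left descending coronary artery. In a first experiment, viable CD45+ cells left unstained by a CD45.2 antibody given into the blood before death were sorted from male C57BL6/J mice in 5 libraries: the steady state with no infarct (5 mice pooled), day 1, day 3 and day 5 (5 mice pooled each) and day 7 (3 mice pooled). Neutrophils were reduced in number before the sort, so their share of cells is not that of the tissue. In a second experiment, CD11b+ heart cells of male mice were tagged with hashtag antibodies and pooled, with hashtag 1 for day 1 (5 mice), hashtag 2 for day 3 (5 mice) and hashtag 3 for day 5 (3 mice) after infarction. Another library pooled CD11b+ cells, negative for Ter119, B220 and NK1.1, from blood of mice 8 to 10 weeks old without surgery (3 mice), 1 or 3 days after sham surgery (3 mice each) and 1 or 3 days after infarction (5 mice each), together with mechanically dissociated ischemic heart of the infarcted mice. Its Ly6G+ and Ly6G- cells were brought to about equal numbers, and its 7 hashtags were not paired with conditions, so their values stand as descriptions only. Because the mice of a day were pooled, the unit of comparison was the summed UMI count of a cell class in 1 library or hashtag, and each of days 1, 3 and 5 had 2 such sums, 1 from each experiment. The p-values below therefore measure how far the day changes of these experiments differ, and not the spread between mice. Part of the variance used was borrowed from other genes.

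Neutrophil sums held 40 to 998 cells and 104690 to 4054618 UMIs at days 1, 3 and 5, and monocyte/macrophage sums held 216 to 1213 cells and 2143330 to 39206110 UMIs. The smallest neutrophil sum, that of day 5 in the CD45+ libraries, held 40 cells, and the steady state (7 cells) and day 7 (29 cells) held too few neutrophils to be used. Levels are given as CPM, the UMIs of a gene per 1000000 UMIs of the sum. The classes were checked with surface Ly6G, a neutrophil marker, whose median antibody count was 316 in neutrophils and 115 in monocytes/macrophages of the heart pool and 19 and 1 in the blood and heart pool. Markers of the other class were counted in the sums. The 34 monocyte/macrophage markers summed to 5409 to 13497 CPM in heart neutrophils, against 24961 to 90719.5 CPM in monocytes/macrophages, and 5 genes of tissue macrophages (C1qa, C1qb, C1qc, Apoe and Ms4a7) stood at 4.06% to 20.9% of their macrophage level. In the other direction, the 20 neutrophil markers summed to 26706 CPM in monocytes/macrophages of the CD45+ day 1 library, and to 730 to 3266 CPM in the other heart sums of days 1, 3 and 5, of which the heart pool day 1 sum had 3068 CPM. A class may express some markers of the other list itself. Slpi, on the neutrophil list, was among the 10 leading genes of a monocyte/macrophage cluster of the CD45+ libraries. How much of these counts was RNA of the other class, and its part in the results, was not tested.

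All 9 genes are protein coding (positions in GRCm38, GENCODE annotation). The Itgal gene lies at chr7:127296260-127335138 on the plus strand and Itgam at chr7:128062640-128118491 on the plus strand. Itgb2 lies at chr10:77530252-77565708 (plus), Icam1 at chr9:21015985-21028817 (plus) and Selplg at chr5:113818536-113832644 (minus). On chromosome 2, Itga4 lies at chr2:79255426-79333123 (plus) and Cd44 at chr2:102811141-102901665 (minus). The 2 PD-1 ligand genes are neighbours on the plus strand of chromosome 19, Cd274 at chr19:29367455-29388095 and Pdcd1lg2 at chr19:29410919-29471161. A second gene model that overlaps Itgam held 8 to 74 UMIs in the CD45+ libraries, where Itgam held 336 to 2492, and 1149 and 4089 UMIs in the heart pool and in the blood and heart pool, where Itgam held 33366 and 33976. Reads of this locus may be split between the models, and only the Itgam model was used.

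The 250 bases before the transcription start are shown for Icam1, whose level in heart neutrophils stood furthest above that in monocytes/macrophages by the median ratio among the 9 genes, and for Itgam, Cd274 and Pdcd1lg2, which were lower on day 5 than on day 1 in at least 1 class. RefSeq promoters (GRCm38.p6) were found for 6 of the 9 genes, not for Selplg, Itgb2 and Itgal. The RefSeq start lies before the GENCODE gene start for Icam1 (21015940 against 21015985) and Cd274 (29367438 against 29367455). For Itgam and Pdcd1lg2 the starts are the same. Distances are counted from the RefSeq start. Capitals mark matches, on either strand, to 5 motifs. All windows are on the plus strand and written 5′ to 3′: chr9:21015690-21015939 for Icam1, chr7:128062390-128062639 for Itgam, chr19:29367188-29367437 for Cd274 and chr19:29410669-29410918 for Pdcd1lg2.
Icam1: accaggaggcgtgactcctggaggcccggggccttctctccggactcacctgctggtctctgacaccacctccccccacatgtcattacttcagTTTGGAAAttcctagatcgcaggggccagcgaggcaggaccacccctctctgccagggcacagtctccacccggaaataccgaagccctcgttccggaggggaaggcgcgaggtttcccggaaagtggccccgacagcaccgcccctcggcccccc
Itgam: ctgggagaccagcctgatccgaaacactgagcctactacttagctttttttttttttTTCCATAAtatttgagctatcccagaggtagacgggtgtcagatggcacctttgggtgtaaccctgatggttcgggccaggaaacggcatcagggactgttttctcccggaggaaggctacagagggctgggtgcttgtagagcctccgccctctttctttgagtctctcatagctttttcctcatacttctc
Cd274: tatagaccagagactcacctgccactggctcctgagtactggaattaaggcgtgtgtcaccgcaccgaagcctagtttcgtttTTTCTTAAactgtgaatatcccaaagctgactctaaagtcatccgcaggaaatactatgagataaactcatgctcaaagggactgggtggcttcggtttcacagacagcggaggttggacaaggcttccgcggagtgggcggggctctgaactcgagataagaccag
Pdcd1lg2: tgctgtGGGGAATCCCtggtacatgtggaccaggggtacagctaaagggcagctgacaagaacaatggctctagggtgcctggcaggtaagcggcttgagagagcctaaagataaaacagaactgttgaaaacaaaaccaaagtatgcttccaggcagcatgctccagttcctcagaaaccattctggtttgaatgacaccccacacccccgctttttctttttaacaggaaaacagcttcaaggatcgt

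The kappaB motif was searched as GGRRNNYYCC (R is A or G, Y is C or T, N is any base), and other forms of the site were not searched. A match was found in the Pdcd1lg2 window at 244 to 235 bases before the start, as GGGGAATCCC. The other windows of the 6 held no match to this pattern, whereas 9.55% of 32851 promoters in the table held one. The C/EBP motif TTNNGNAA occurred in 3 of the 6: as TTTGGAAA at 156 to 149 bases before the start of Icam1, and on the minus strand of Itgam (193 to 186 bases) and Cd274 (167 to 160 bases). It occurred in 36.8% of all promoters. No match was found in the 6 windows to the interferon response element GAANNGAAA, to the PU.1 motif AGGAAGT or to the AP-1 motif TGANTCA, which 6.31%, 7.69% and 6.75% of all promoters held. No motif matches overlapped each other in the printed windows.

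**Figure D1:**
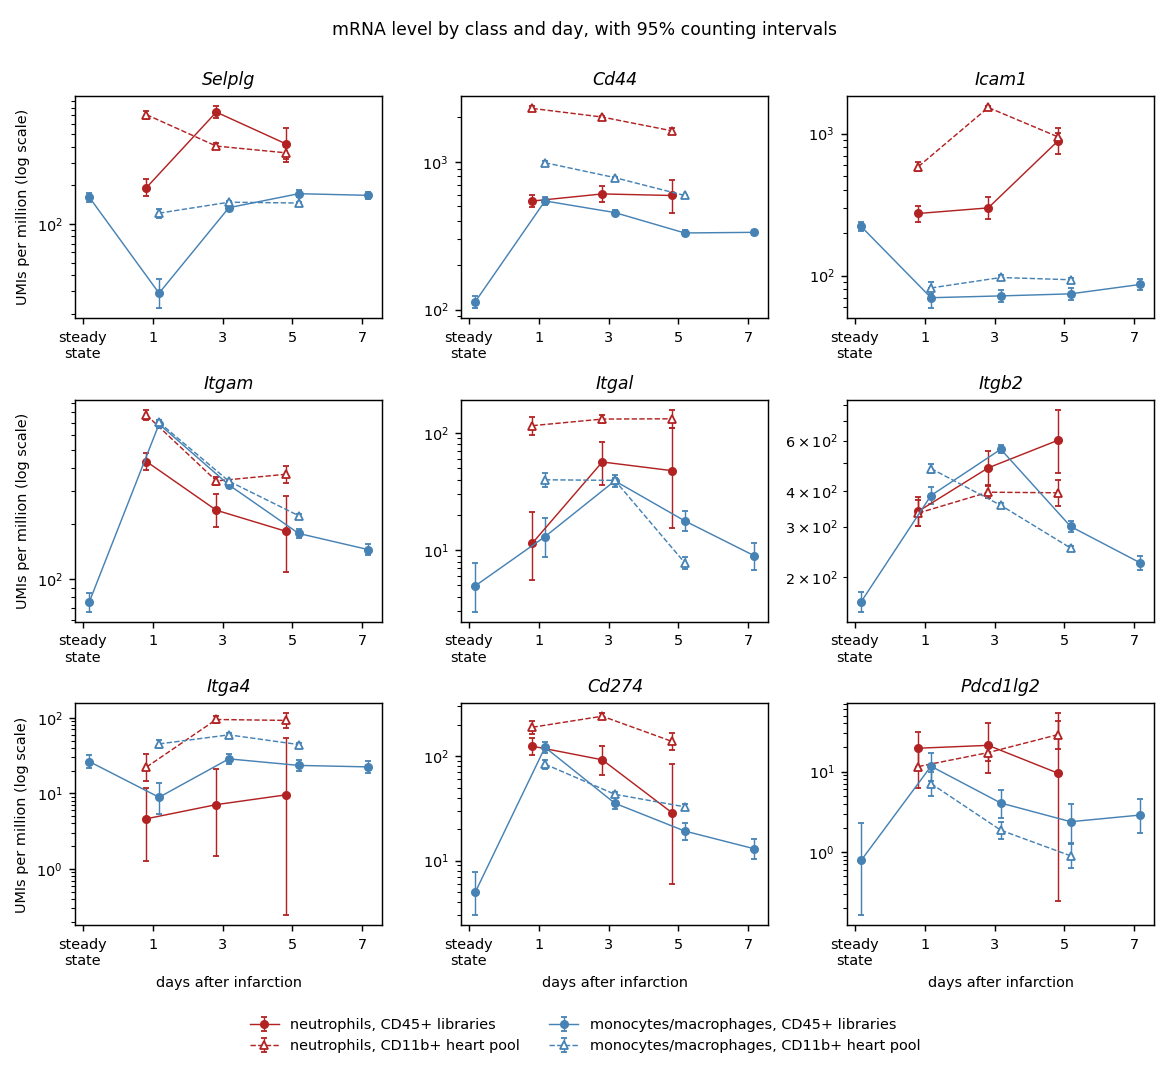
Level of each gene (CPM, log axis) by day in neutrophils and monocytes/macrophages, with 1 point per sum, the experiment shown by marker and 95% Poisson intervals as bars that cover counting error only. Icam1 in neutrophils lies above monocytes/macrophages in all 6 pairs, and Itgam and Cd274 in monocytes/macrophages are highest on day 1 in both experiments.

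Selplg, the gene of the main P-selectin ligand, was more abundant in neutrophils than in monocytes/macrophages in every heart sum. In neutrophils its level was 192, 744 and 420 CPM on days 1, 3 and 5 in the CD45+ libraries, and 710, 404 and 358 CPM in the heart pool. The experiments thus had their highest value on different days. In monocytes/macrophages it was 28.9, 134 and 172 CPM in the CD45+ libraries on days 1, 3 and 5, and 121, 148 and 146 CPM in the heart pool. The 28.9 CPM of the CD45+ day 1 library stood apart from the other sums, since the steady state had 162 CPM and day 7 had 167 CPM. It lay within the counting interval of the Selplg level in erythroid cells of the CD45+ libraries, which was 21.2 CPM (95% interval 10.6 to 37.9, 11 UMIs). No day contrast of Selplg passed the threshold in either class. Its log2 change from day 1 to day 5 in monocytes/macrophages was 0.99 (SE 0.52, adjusted p = 0.242, edgeR's quasi-likelihood test), with 2.26 in the CD45+ libraries and 0.06 in the heart pool. The neutrophil to monocyte/macrophage ratio of CPM ran from 2.44 to 6.65 over the 6 heart pairs, with a median of 4.14.

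Cd44, the hyaluronan receptor, was lower on day 5 than on day 1 in monocytes/macrophages of both experiments. Its level there was 544, 454 and 330 CPM on days 1, 3 and 5 in the CD45+ libraries and 987, 782 and 592 CPM in the heart pool, so that both series stepped down from day to day. The steady state library had 113 CPM, below every infarct sum, and day 7 had 334 CPM, close to day 5. Cd44 fell there by 0.98 on the log2 scale from day 1 to day 5 (SE 0.15, adjusted p = 0.0218, edgeR's quasi-likelihood test), with a within-experiment change of -1.02 and -0.93. This call was lost without the CD45+ day 5 sum (adjusted p = 0.150), without the heart pool day 3 sum (0.0767), without the heart pool day 5 sum (0.0942), with only the 2 days compared (0.107) and without the experiment term (0.432), all by edgeR, at log2 changes between -1.02 and -0.89. In neutrophils Cd44 was at 543, 607 and 592 CPM in the CD45+ libraries and 2299 CPM on day 1, 2010.1 on day 3 and 1622 on day 5 in the heart pool. The step between the experiments was larger than any step between days. The fitted neutrophil change from day 1 to day 5 was -1.21 (SE 0.41, adjusted p = 0.0808, edgeR) and did not pass.

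The fitted changes of neutrophils depend on how the sums were scaled, which is why CPM and fitted values differ here. On day 1 the 20 neutrophil markers alone took 242311 CPM of the CD45+ neutrophil sum and 105451 CPM of the heart pool sum, against 68755 and 67812 CPM on day 5. The fits scaled the sums by the trimmed mean of M-values, which sets the bulk of genes level between days. With library totals alone the median gene shifted by 0.90 (log2) from day 1 to day 5 in neutrophils and by 0.23 in monocytes/macrophages, and the neutrophil Cd44 change was -0.19. Among all neutrophil genes the split of calls went from 111 higher and 320 lower to 1108 higher and 87 lower with totals alone. For day 3 against day 1 it went from 33 higher and 111 lower to 385 higher and 51 lower. In monocytes/macrophages on day 5 it went from 428 higher and 577 lower to 459 higher and 289 lower. Changes below are relative to the bulk of genes.

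Icam1 transcript was several times as abundant in heart neutrophils as in monocytes/macrophages. Neutrophils held 274, 300 and 888 CPM on days 1, 3 and 5 in the CD45+ libraries, and 586, 1525 and 947 CPM in the heart pool. Day 3 of the heart pool was the highest of the 6 sums and rested on 6184 UMIs, whereas day 5 of the CD45+ libraries rested on 93. Monocytes/macrophages held 70.0, 72.0 and 74.5 CPM in the CD45+ libraries and 81.9, 97.1 and 93.6 CPM in the heart pool on the same days. The neutrophil level thus exceeded the monocyte/macrophage level 3.91 to 15.7 times, with a median of 8.63, in 6 of 6 pairs. The steady state library, whose monocytes/macrophages were almost all of 1 cluster led by Hspa1a, Mgl2, Cbr2 and Folr2 (96.9%), had 222 CPM (850 UMIs), above the 70.0 to 74.5 CPM of days 1, 3 and 5 in the same experiment. Hspa1a encodes a heat shock protein, and the stress response gene Atf3 was also among the 10 leading genes of that cluster, and their part in the level was not tested. Day 7 had 86.8 CPM. No test compares the steady state with infarct days, since each has 1 library of this sort.

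No Icam1 day contrast passed in either class, and the interval of the change shows how far that goes. In neutrophils the log2 change was 0.19 (SE 0.45, adjusted p = 0.862, edgeR) from day 1 to day 3 and 0.21 (SE 0.45, adjusted p = 0.816, edgeR) from day 1 to day 5. The day 3 values of the experiments had opposite signs, -0.58 in the CD45+ libraries and 0.75 in the heart pool. In monocytes/macrophages the change on day 5 was -0.11 (SE 0.17, adjusted p = 0.699, edgeR), with bounds at 2 SE of -0.45 and 0.24, and with library totals alone it was 0.14.

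Itgam was lower on days 3 and 5 than on day 1. It encodes CD11b, the antigen used to sort the heart pool. In neutrophils it was at 433, 236 and 181 CPM on days 1, 3 and 5 in the CD45+ libraries and at 773, 340 and 369 CPM in the heart pool, so that day 1 was highest in both experiments. Relative to the bulk of genes it fell by 1.70 on the log2 scale from day 1 to day 3 (SE 0.40, adjusted p = 0.0334, edgeR) and by 2.11 from day 1 to day 5 (SE 0.41, adjusted p = 0.00742, edgeR). With library totals alone these changes were -1.02 (adjusted p = 0.0788, edgeR) and -1.12 (adjusted p = 0.0444, edgeR). The day 3 call was lost without the CD45+ day 3 sum (adjusted p = 0.0989), without the CD45+ day 5 sum (0.0585), without the heart pool day 3 sum (0.436) and without the heart pool day 5 sum (0.0594), all by edgeR. It was also lost with classes taken from each cell's own markers (-1.29, adjusted p = 0.398, edgeR) and without the experiment term (-1.70, adjusted p = 0.824, edgeR). The day 5 call was lost without the CD45+ day 5 sum (0.223) or the heart pool day 5 sum (0.0615), at log2 changes between -2.60 and -1.82, and without the experiment term (-2.09, adjusted p = 0.397, edgeR).

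In monocytes/macrophages Itgam was at 690, 324 and 177 CPM in the CD45+ libraries and at 705, 339 and 221 CPM in the heart pool, nearly the same series in both experiments. The steady state had 75.2 CPM and day 7 had 144 CPM, both below all values of days 1, 3 and 5. The transcript fell by 2.07 on the log2 scale from day 1 to day 5 (SE 0.18, adjusted p = 0.00734, edgeR), and this call held in each of 6 fits that left out 1 sum, at -2.23 to -1.85. It was lost without the experiment term (-2.09, adjusted p = 0.191, edgeR). The log2 change from day 1 to day 3 was -1.30 (adjusted p = 0.0518, edgeR), just outside the threshold. The test of the difference between classes called no change of Itgam to be unequal.

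Itgb2, the shared beta2 chain, was higher in monocytes/macrophages on day 1 and higher in neutrophils on day 5, in both experiments. On day 3 the experiments differed in the order of the classes. Neutrophils held 340, 482 and 602 CPM on days 1, 3 and 5 in the CD45+ libraries and 335, 396 and 394 CPM in the heart pool. Monocytes/macrophages held 385, 559 and 300 CPM in the CD45+ libraries and 479, 356 and 252 CPM in the heart pool, with 164 CPM in the steady state and 224 CPM on day 7. The ratio between the classes ran from 0.699 to 2.00 with a median of 0.996. The monocyte/macrophage change from day 1 to day 5 was -0.91 (SE 0.24, adjusted p = 0.0687, edgeR), outside the threshold, and no neutrophil contrast passed.

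Itgal, the CD11a chain, was sparse in the CD45+ libraries. Neutrophils there held 11.5, 56.7 and 47.8 CPM on days 1, 3 and 5, from 10, 24 and 5 UMIs, and heart pool neutrophils held 116, 132 and 132 CPM. Monocytes/macrophages held 13.1, 39.1 and 17.8 CPM in the CD45+ libraries and 39.9, 39.5 and 7.83 CPM in the heart pool. Their steady state and day 7 libraries were low, at 4.96 and 8.95 CPM. No contrast passed: the monocyte/macrophage change from day 1 to day 5 was -1.44 (SE 0.59, adjusted p = 0.162, edgeR), with 0.13 in the CD45+ libraries and -2.55 in the heart pool. Neutrophils exceeded monocytes/macrophages most in the heart pool on day 5, at 16.9 times, and least in the CD45+ libraries on day 1, at 0.881 times.

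Itga4, the alpha4 chain of VLA-4, was low in heart neutrophils. The CD45+ libraries gave 4, 3 and 1 UMIs on days 1, 3 and 5, and the heart pool 22.3, 94.95 and 92.4 CPM. The day 1 sum of the heart pool was thus below days 3 and 5, and the CD45+ counts were too few to show a change of that size or its absence. The fitted log2 change was 1.11 on day 3 (SE 0.56, adjusted p = 0.313, edgeR) and 0.99 on day 5 (SE 0.59, adjusted p = 0.337, edgeR) against day 1. With library totals alone the day 5 change was 1.83 and passed (adjusted p = 0.0405, edgeR). Monocytes/macrophages held 8.86, 28.6 and 23.4 CPM on days 1, 3 and 5 in the CD45+ libraries, with 26.4 CPM in the steady state and 22.4 CPM on day 7, and 45.1, 59.4 and 44.2 CPM in the heart pool. None of their contrasts passed.

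Cd274, the PD-L1 gene, was lower on day 5 than on day 1 in both classes. In monocytes/macrophages it was at 4.96 CPM in the steady state, at 121, 35.3 and 19.2 CPM on days 1, 3 and 5 of the CD45+ libraries, and at 12.9 CPM on day 7. In the heart pool it was at 83.7, 43.1 and 32.7 CPM. Day 1 was the highest in both experiments, and every later library of the CD45+ series was below the one before it. From day 1 to day 5 the transcript fell by 2.24 on the log2 scale (SE 0.35, adjusted p = 0.0229, edgeR), with -2.96 in the CD45+ libraries and -1.56 in the heart pool. Without the CD45+ day 5 sum the change was -1.75 and did not pass (adjusted p = 0.0749, edgeR). Nor did it pass with only the 2 days compared (-2.20, adjusted p = 0.0656, edgeR) or without the experiment term (-2.33, adjusted p = 0.195, edgeR). In neutrophils Cd274 was at 124, 92.1 and 28.7 CPM in the CD45+ libraries, the last from 3 UMIs, and at 189, 241 and 138 CPM in the heart pool. It fell by 1.92 from day 1 to day 5 (SE 0.48, adjusted p = 0.0266, edgeR), with -3.16 and -1.22 within the experiments. This call was lost with library totals alone (-0.98, adjusted p = 0.125), without the CD45+ day 5 sum (-1.48, adjusted p = 0.360) and without the heart pool day 5 sum (-3.20, adjusted p = 0.0776), all by edgeR. It was also lost with own-marker classes (-2.09, adjusted p = 0.0613, edgeR) and without the experiment term (-1.81, adjusted p = 0.425, edgeR).

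Pdcd1lg2, the PD-L2 gene, was rare. Monocytes/macrophages held 0.783 CPM in the steady state (3 UMIs), then 11.7, 4.06 and 2.38 CPM on days 1, 3 and 5 (25, 27 and 14 UMIs) and 2.88 CPM on day 7 (18 UMIs). In the heart pool they held 7.10, 1.86 and 0.893 CPM (37, 64 and 35 UMIs). Cluster 2 of the heart pool, which got no name, was not part of the class. It held 40 UMIs on day 3 (12.5 CPM) and 34 on day 5 (7.52 CPM), and had too few cells on day 1 (20) to be summed. Both series of the class were highest on day 1 and stepped down to day 5. The level in the class fell by 2.93 on the log2 scale from day 1 to day 5 (SE 0.36, adjusted p = 0.0138, edgeR). This call was lost without the CD45+ day 5 sum (adjusted p = 0.0597, edgeR) and without the heart pool day 5 sum (adjusted p = 0.0731, edgeR). Own-marker classes (-1.97, adjusted p = 0.0603), only the 2 days compared (-2.87, adjusted p = 0.0553) and no experiment term (-2.85, adjusted p = 0.354) ended it too, all by edgeR. Neutrophils held 17, 9 and 1 UMIs on days 1, 3 and 5 in the CD45+ libraries and 13, 70 and 26 UMIs in the heart pool, or 11.6, 17.3 and 28.9 CPM there. No neutrophil contrast passed. The difference between the classes in the change from day 1 to day 5 was -2.80 on the log2 scale (SE 0.69, adjusted p = 0.0835, edgeR), monocytes/macrophages minus neutrophils, and did not pass.

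**Figure D2:**
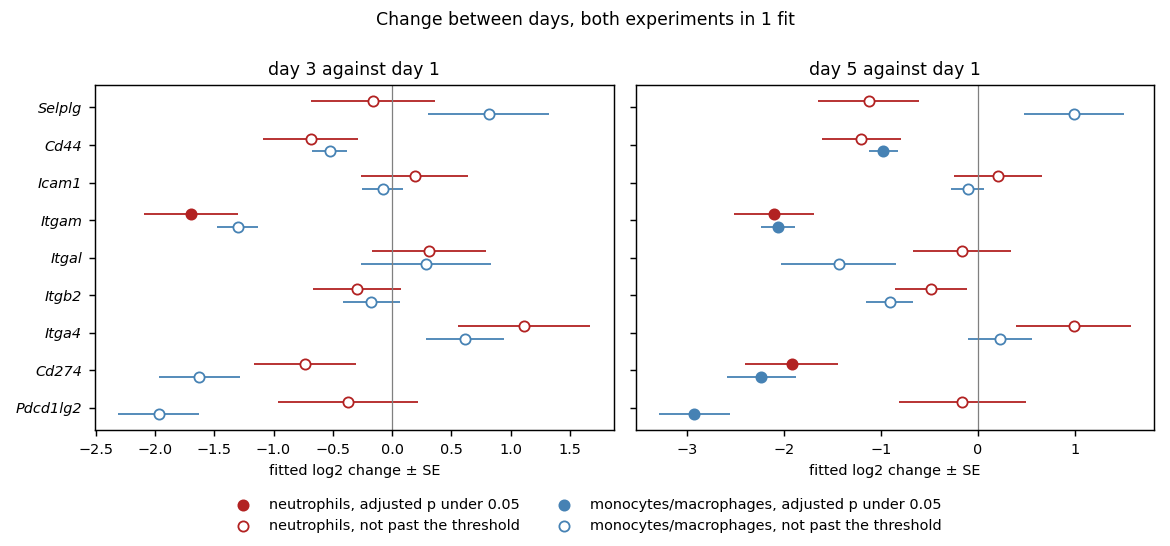
Fitted log2 change of each gene against day 1 in neutrophils and in monocytes/macrophages, with bars of 1 SE and filled points for an adjusted p under 0.05. Itgam lies below 0 for both days and classes, whereas the bars of Icam1 cross 0 in both classes.

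Counted over the 9 genes, calls were few and all downward. In neutrophils 1 of 9 genes (Itgam) passed from day 1 to day 3, where 2.33% of 6173 genes did, and 2 of 9 (Itgam and Cd274) from day 1 to day 5, where 6.98% did. In monocytes/macrophages 0 of 9 passed from day 1 to day 3, where 0.344% of 10454 genes did, 4 of 9 had an unadjusted p under 0.05, as 1780 of all genes did, and DESeq2 called 3 (Cd274, Itgam and Pdcd1lg2) and 4.31% of all genes. From day 1 to day 5, 4 of 9 passed (Cd44, Itgam, Cd274 and Pdcd1lg2), where 9.61% of all genes did. No gene passed from day 3 to day 5 by edgeR in either class (0% of all genes). In that contrast 1 of the 9 genes had an unadjusted p under 0.05 in neutrophils and 5 of 9 in monocytes/macrophages, where 1.98% and 7.63% of all genes had. DESeq2 called 0 of the 9 in both, and 1 and 95 of all genes. The median log2 change of the 9 genes from day 1 to day 5 was -0.49 in neutrophils and -0.98 in monocytes/macrophages, beside -0.03 and -0.01 over all genes tested. The test of unequal change between the classes called 0 of 9 genes, with 1 of 9, 2 of 9 and 0 of 9 at an unadjusted p under 0.05 for day 3 against 1, day 5 against 1 and day 5 against 3, where 11.5%, 16.6% and 3.46% of all genes had. That test called 0.00988%, 0.267% and 0% of 10117 genes, and DESeq2 was not run for it. A fit without the experiment term called no gene of either class. Neutrophil markers in monocytes/macrophages also were highest on day 1 in both experiments, and their part in the monocyte/macrophage changes was not tested.

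**Figure D3:**
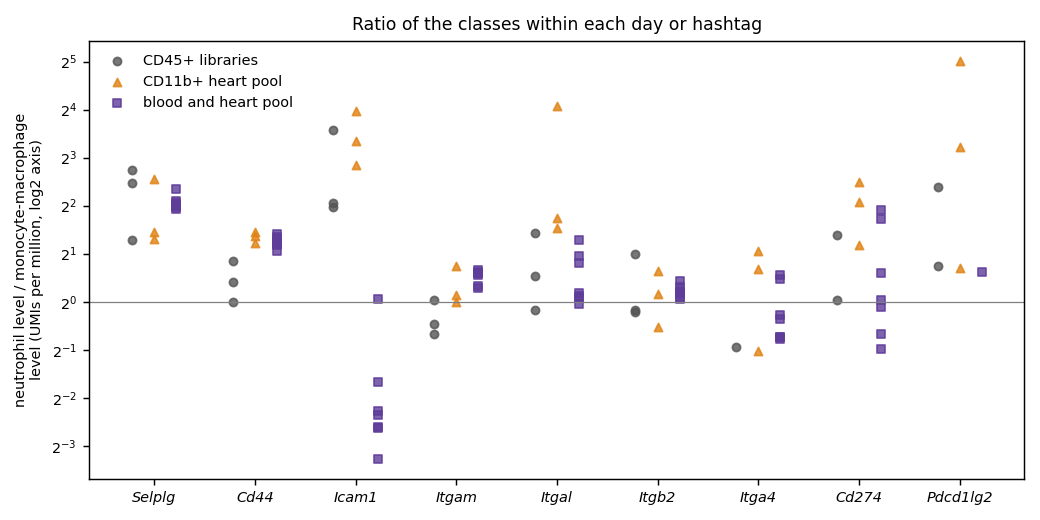
Ratio of the neutrophil to the monocyte/macrophage level (log axis) for each gene, with 1 point per heart sum or hashtag. Selplg lies above 1 in all heart sums and hashtags, and Icam1 lies above 1 in the 6 heart sums and below 1 in 6 of the 7 hashtags.

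Across genes, 4 of the 9 (Selplg, Icam1, Cd274 and Pdcd1lg2) were higher in neutrophils in every heart pair that gave a ratio. This is a description, because the classes came from clusters of all genes. Pairs with under 4 UMIs on a side gave no ratio, which left 5 for Cd274 and Pdcd1lg2 and 4 for Itga4. Cd274 ratios ran from 1.02 to 5.59 with a median of 2.61. Pdcd1lg2 ratios ran from 1.63 to 32.4 with a median of 5.23. Cd44 ratios ran from 0.999 to 2.74 with a median of 2.06, the lowest being that of the CD45+ day 1 library. Itgam ratios ran from 0.627 to 1.68 and Itga4 ratios from 0.493 to 2.09, on both sides of 1.

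Within the heart pool the genes differed between clusters of a class. Neutrophil cluster 3 (1055 cells, led by Tnf, Icam1, Ccrl2 and Ccl3) held 1595 CPM of Icam1 and 333 CPM of Selplg. Cluster 4 (423 cells, led by Retnlg, S100a9, Rsad2 and Isg15) held 497 CPM of Icam1 and 738 CPM of Selplg, the reverse order. Icam1 was among the genes that defined cluster 3, so its level there is no finding. Cluster 3 made up 20.5%, 83.9% and 73.5% of neutrophils on days 1, 3 and 5. Selplg within cluster 4 stayed between 712 and 755 CPM on the 3 days, and within cluster 3 it was 479, 341 and 253 CPM. Itgam, by contrast, was highest on day 1 inside each cluster: 738, 329 and 352 CPM on days 1, 3 and 5 in cluster 3, and 779, 394 and 427 CPM in cluster 4. Itgal was at 118, 210 and 349 CPM in cluster 4 and at 105, 116 and 67.9 CPM in cluster 3.

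Monocytes/macrophages of the heart pool changed in cluster makeup over the days. Cluster 0 (led by Plac8, Chil3, Ly6c2 and Ccr2, genes of inflammatory monocytes) made up 41.2%, 36.5% and 12.7% of the class on days 1, 3 and 5. Cluster 1 (led by Arg1, Saa3 and Fn1) made up 49.3%, 6.49% and 4.04%, and cluster 5 (led by Fabp5, Gpnmb, Apoe and C1qa among others) 7.69%, 41.3% and 62.6%. Itgam was at 891, 1037 and 814 CPM in cluster 1, at 477, 422 and 321 CPM in cluster 0 and at 282 and 194 CPM in cluster 5 on days 3 and 5. Cd44 in cluster 0 was at 1090.0, 1055 and 959.8 CPM, in cluster 1 at 978, 1408 and 1088 CPM, and in cluster 5 at 673 and 587 CPM on days 3 and 5. Cd274 was at 80.8, 75.9 and 63.3 CPM in cluster 0, at 92.5, 90.5 and 52.2 CPM in cluster 1, and at 30.2 and 32.8 CPM in cluster 5. For Itgam the gap between clusters 1 and 5 on days 3 and 5 was larger than any step between days inside these 3 clusters. Cluster 5 had too few cells on day 1 (17) to be summed, and the class also held other clusters, not listed here. The part of cluster makeup in the monocyte/macrophage changes of Itgam, Cd44 and Cd274 was not tested in either experiment. Itgal was at 102 CPM in cluster 0, 16.4 CPM in cluster 1 and 5.81 CPM in cluster 5. Pdcd1lg2 was at 4.79, 4.19 and 0.854 CPM in the same clusters, and at 10.4 CPM (84 UMIs) in cluster 2, an unnamed cluster led by the antigen presentation genes H2-Eb1, H2-Ab1, H2-Aa and Cd74.

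The CD45+ libraries showed the same kind of makeup change, with a different cluster holding most of the class on each of days 1, 3 and 5. The cluster of day 5 also held most of the class on day 7 (68.8%). The clusters that held most monocytes/macrophages were led by Saa3, Cxcl3 and Arg1 on day 1 (91.2%), by Plac8, Chil3 and Tgfbi on day 3 (70.8%) and by Ms4a7, Gpnmb and Ctsd on day 5 (63.2%). Itgam was at 700 CPM in the first, at 304 CPM on day 3 in the second and at 139 CPM on day 5 in the last. Cd274 was at 125, 37.1 and 13.8 CPM in the same order. Inside the cluster led by Plac8, Cd44 was at 492, 511 and 561 CPM on days 3, 5 and 7, while over the class it was 454, 330 and 334 CPM. Neutrophils of day 1 came from a cluster led by Ngp and Retnlg (98.1%), and those of days 3 (97.0%) and 5 (100%) from a cluster led by G0s2 and Il1r2. Day and cluster therefore cannot be told apart in these neutrophils.

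**Figure D4:**
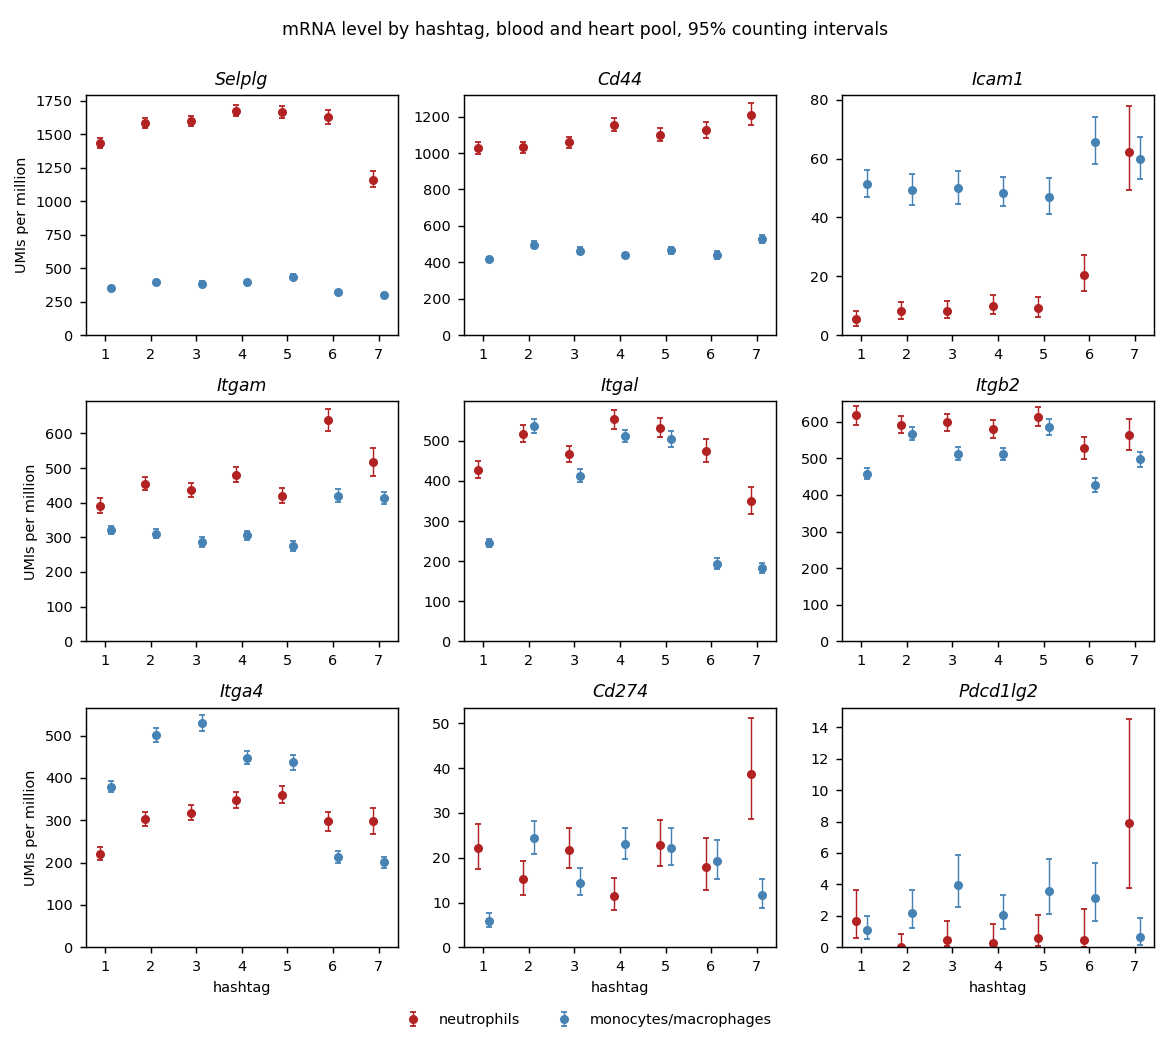
Level of each gene (CPM, linear axis from 0) in neutrophils and monocytes/macrophages by hashtag 1 to 7 of blood with heart, with 95% Poisson intervals of the counts. Icam1 in neutrophils is lowest in hashtag 1 and highest in hashtag 7, and Itgal in monocytes/macrophages is lowest in hashtags 6 and 7.

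In the blood and heart pool, the neutrophil levels of Icam1, Selplg, Itgal and Itga4 lay outside those of the heart experiments. Neutrophils held 5.31 CPM of Icam1 in the lowest hashtag, 9.17 in the median hashtag and 62.4 in the highest, hashtag 7, with hashtag 6 next at 20.5 CPM. All 7 values lay below the lowest heart sum, which was 274 CPM. Selplg went the other way, at 1161 CPM in the lowest hashtag, 1599.9 in the median and 1677 in the highest, all above the highest heart neutrophil sum. Itgal had 351, 475 and 554 CPM and Itga4 had 221, 303 and 361 CPM as lowest, median and highest hashtag, again all above the heart sums. This library differed from the heart experiments in tissue (blood with heart), in dissociation and, from the CD45+ libraries, in chemistry, and these cannot be told apart.

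Cd44 in neutrophils of this pool stayed between 1025 and 1211 CPM, above all heart sums of the CD45+ libraries and below all of the heart pool. Itgb2 had 529 CPM in the lowest hashtag, 592 in the median and 618 in the highest. Itgam had 392, 455 and 638 CPM, the highest in hashtag 6. The PD-1 ligands were low: Cd274 had 11.6 CPM in the lowest hashtag and 38.7 in the highest, and Pdcd1lg2 had 0 to 10 UMIs per hashtag. Both ligands were highest in hashtag 7, as Icam1 was.

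Among monocytes/macrophages of the pool, Itgal had 182 CPM in the lowest hashtag, 413 in the median and 536 in the highest, and Itga4 had 201, 437 and 530 CPM. Hashtags 6 and 7 were the 2 lowest for both genes, and for Itga4 the other 5 lay between 379 and 530 CPM. Selplg ran from 298 to 438 CPM, Cd44 from 417 to 527 CPM and Itgb2 from 427 to 585 CPM. Itgam was highest in hashtags 6 and 7, at 421 and 413 CPM, with the others at 275 to 322 CPM. Icam1 ran from 47.0 to 65.7 CPM, Cd274 from 5.91 to 24.3 CPM and Pdcd1lg2 from 0.638 to 3.97 CPM. Selplg, Cd44, Itgam and Itgb2 were higher in neutrophils in all 7 hashtags. The Selplg ratio ran from 3.81 to 5.06 and the Cd44 ratio from 2.07 to 2.64, whereas the Icam1 ratio ran from 0.104 to 1.04.

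The hashtags also differed in clusters. Neutrophil cluster 2 (499 cells, led by Cxcl2 and Il1r2 among others) made up 37.9% and 59.2% of neutrophils in hashtags 6 and 7 and at most 0.839% in the others. It held 62.7 CPM of Icam1, against 9.18 and 7.13 CPM in neutrophil clusters 0 and 1, and 712 CPM of Itgam against 454 and 419 CPM. Within cluster 2 Icam1 still differed between hashtags, at 23.8 CPM in hashtag 6 (20 UMIs) and 104 CPM in hashtag 7 (76 UMIs). Among monocytes, cluster 3 (811 cells, led by Ear2, Ace, Pou2f2 and Spn, genes of nonclassical monocytes that patrol vessels) held 1435 CPM of Itgal, 808 CPM of Itga4, 1044 CPM of Itgb2 and 85.2 CPM of Cd274. Cluster 4 (1991 cells, led by Chil3, F13a1 and Ccr2) held 202 CPM of Itgal, 377 CPM of Itga4, 405 CPM of Itgb2 and 2.22 CPM of Cd274. The share of cluster 3 in the class was 10.5%, 38.8%, 25.6%, 30.6%, 36.4%, 3.91% and 4.17% in hashtags 1 to 7, low in hashtags 6 and 7 as Itgal was. A smaller cluster of 108 cells that was also led by Ace and Ear2 had a median surface Ly6G count of 23, like neutrophils, and held 793 CPM of Selplg. It was counted with monocytes/macrophages by its markers.

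**Figure D5:**
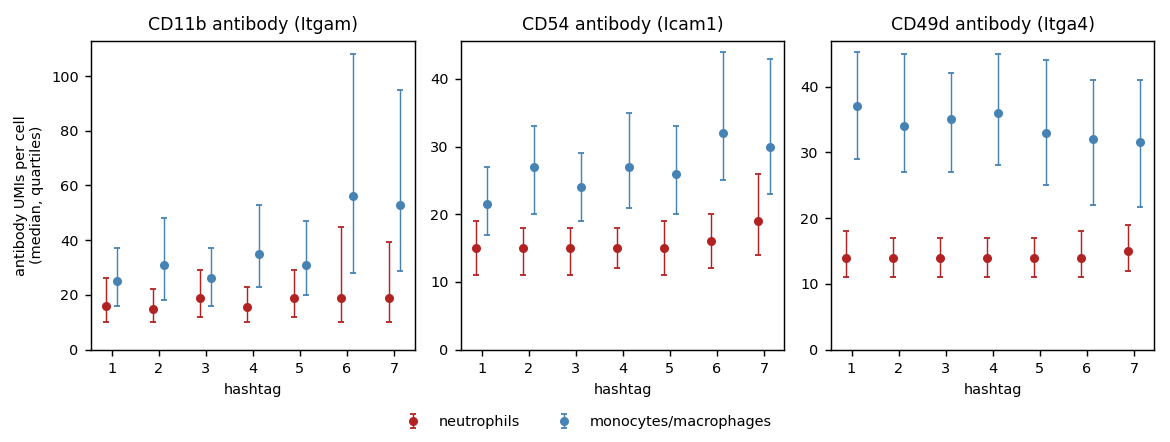
Median antibody UMIs per cell, with bars for the quartiles, for CD11b, CD54 and CD49d, the proteins of Itgam, Icam1 and Itga4, by hashtag and class in the blood and heart pool. Monocytes/macrophages lie above neutrophils for all 3 antibodies in all 7 hashtags.

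Surface antibodies in the blood and heart pool covered 3 of the 9 proteins, and those of the heart pool covered none. The median CD54 (ICAM-1) count of neutrophils was 15 in hashtags 1 to 5, 16 in hashtag 6 and 19 in hashtag 7, an order that ended with the same 2 hashtags as the Icam1 mRNA. That of monocytes/macrophages was 21.5 to 32. The CD11b count was 15 to 19 in neutrophils and 25, 31, 26, 35, 31, 56 and 53 in monocytes/macrophages of hashtags 1 to 7, highest in the hashtags with the highest Itgam mRNA of that class. Between the classes the order was reversed: CD11b counts were higher in monocytes/macrophages in all 7 hashtags, and Itgam mRNA was higher in neutrophils in all 7. CD49d was 14 or 15 in neutrophils and 31.5 to 37 in monocytes/macrophages, whose Itga4 mRNA varied more, from 201 to 530 CPM. The antibody counts were not corrected for cell size or free antibody, so medians are set side by side only.

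The genes whose levels ran most like each gene over 28 sums of both classes, after centring each experiment, were named by Pearson's r among 2583 genes. The sums share libraries, so r is a description. The classes were not centred, so a gap between neutrophils and monocytes/macrophages enters r beside changes over days or hashtags. Selplg ran most like Trim12c (r = 0.956), Gpsm3 (0.953) and Fam32a (0.948). Icam1 ran most like Arf2 (0.950), Dusp2 (0.927), a phosphatase of MAP kinases, and Tgif1 (0.902). The nearest genes to Cd44 were Arg2 (0.955), Cd300lf (0.954) and Rab11fip1 (0.952). Itgam was nearest to the glycolytic gene Pkm (0.877), the chemokine gene Cxcl3 (0.866) and Glrx (0.859). Itgb2 was nearest to Emb (0.850), Lrrfip1 (0.785) and Pfn1 (0.776). Itgal was nearest to Nadk (0.875), Slc2a6 (0.853) and Cyp4f18 (0.835), and Itga4 to Ppp2r5c (0.822), Stap1 (0.808) and Sh2b3 (0.780). Both PD-1 ligand genes had Tnip1, a partner of the NF-kB regulator A20, as their nearest gene, at 0.899 for Cd274 and 0.877 for Pdcd1lg2. Arrdc4 (0.834) and Plaur (0.833) came next for Cd274, and Samsn1 (0.854) and Il1a (0.832) for Pdcd1lg2.

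Other genes of the same pathways were read from the same fits, and none of these lists holds any of the 9 genes. Their counts are to be read against the share of all genes called, which was 2.33% on day 3 and 6.98% on day 5 in neutrophils, and 0.344% and 9.61% in monocytes/macrophages. Of 16 other integrins and adhesion receptors tested in neutrophils, 0 rose and 2 fell from day 1 to day 5, with a median log2 change of -0.70. They were Cd47, the ligand of SIRP alpha (log2 change -2.01, SE 0.42, adjusted p = 0.0112, edgeR), and the tetraspanin gene Cd9 (-1.65, adjusted p = 0.0329, edgeR). Cd47 was at 874, 375 and 353 CPM on days 1, 3 and 5 in the CD45+ libraries and at 693, 291 and 398 CPM in the heart pool. Of 24 such genes tested in monocytes/macrophages, 2 rose and 5 fell from day 1 to day 5, with a median of -0.23. Itga6, an alpha chain of laminin receptors, rose by 2.74 (adjusted p = 0.0394, edgeR), from 1.87 to 59.2 CPM in the CD45+ libraries and from 38.6 to 161 CPM in the heart pool. Cd24a, a P-selectin ligand, fell by 2.35 (adjusted p = 0.0131, edgeR) and Cd9 fell by 1.46 (adjusted p = 0.00954, edgeR). Cd24a was also at 890.9 CPM in day 1 neutrophils of the CD45+ libraries, where monocytes/macrophages had 161 CPM and carried neutrophil markers. Cd9 was at 2955 CPM in the same neutrophils and at 645 CPM in the monocytes/macrophages of that library. The part of neutrophil RNA in the fall of Cd24a and of Cd9 was not tested.

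Of 10 genes that glycosylate selectin ligands, 1 fell in neutrophils on day 5 against day 1, the sialyltransferase gene St3gal6, by 2.42 (SE 0.41, adjusted p = 0.00362, edgeR). It was at 386, 142 and 162 CPM on days 1, 3 and 5 in the CD45+ libraries and at 239, 106 and 81.2 CPM in the heart pool. Of 14 tested in monocytes/macrophages, 0 rose and 2 fell. Of 22 genes of integrin activation, 0 passed in neutrophils and 1 fell in monocytes/macrophages on day 5, Rap1b, a GTPase that activates integrins, by 0.73 (adjusted p = 0.0459, edgeR). Of 7 genes of sheddases and their partners, 2 fell in neutrophils on day 5, with Adam8, a protease that sheds adhesion receptors, down by 2.16 (adjusted p = 0.00707, edgeR). Rhbdf2, which controls the sheddase ADAM17, fell by 2.04 on day 3 (adjusted p = 0.0196, edgeR). Of 8 in monocytes/macrophages, 0 passed.

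Of 20 other costimulatory and checkpoint genes tested in neutrophils, 1 rose and 3 fell from day 1 to day 5. Siglecf, an inhibitory lectin receptor, rose by 3.73 (SE 0.60, adjusted p = 0.00304, edgeR), from 1.15 to 104 and 315 CPM on days 1, 3 and 5 in the CD45+ libraries and from 24.0 to 213 and 265 CPM in the heart pool. On day 3, 2 rose and 1 fell, with Tnfsf9, the 4-1BB ligand, at 2.91 (adjusted p = 0.0467, edgeR) and Nt5e, the CD73 ectoenzyme, at -1.92 (adjusted p = 0.0469, edgeR). Of 27 such genes in monocytes/macrophages, 3 rose and 6 fell on day 5. Arg1, the arginase that depletes arginine, fell by 3.36 (SE 0.32, adjusted p = 0.00813, edgeR), from 4336 to 405 CPM and from 4670 to 635 CPM in the experiments. Cd86, a costimulatory ligand, fell by 1.05 (adjusted p = 0.0325, edgeR), and Sirpa, the receptor of CD47, rose by 0.99 (adjusted p = 0.0282, edgeR). Of interferon gamma response genes, 0 rose and 1 of 16 fell in neutrophils, and 0 rose and 2 of 19 fell in monocytes/macrophages on day 5, with medians of -1.35 and 0.21.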

How the data were processed

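UMI counts, per cell and gene, were deposited by the authors, made from 10x Genomics 3' libraries and not normalized, and those of the 2 pools were written by Cell Ranger 3.0.2, per the file headers. The submitters' processing notes name the mouse builds mm10 and GRCm38, and the aligner settings are not given in the sources used here. Antibody and hashtag counts of the pools were deposited in the same matrices. Kept cells had 200 or more genes detected and no more than 10% of UMIs from mitochondrial genes. Hashtags were called per cell, and cells with several (6.28% of the heart pool, 12.5% of the blood and heart pool) or none (7.81% and 1.40%) were left out, as were 18 doublets called by Scrublet in the CD45+ libraries. This kept 522 to 1793 cells per CD45+ library, 4282 of 5862 in the heart pool and 9999 of 11826 in the blood and heart pool. The mitochondrial limit alone removed 17.4% of heart pool barcodes. Libraries shared 0 to 12 cell barcodes.

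Cells were clustered per experiment (scanpy 1.11.5, Leiden resolution 0.5), and clusters were named from fixed marker lists. Cells of unnamed clusters were in neither class, except with own-marker classes. They made up 4.04%, 5.28% and 11.6% of heart pool cells on days 1, 3 and 5. With a mitochondrial share of up to 20%, a heart pool cluster led by H2-Eb1, H2-Aa and H2-Ab1 was named monocytes/macrophages. UMIs were summed per class, day and experiment over at least 30 cells. Sums of days 1, 3 and 5 were tested with edgeR 4.0.16 (quasi-likelihood, two-sided) with day and experiment as terms, TMM scaling and Benjamini-Hochberg adjustment over all genes tested, threshold 0.05; DESeq2 1.42.0 was an alternative. The fits had 2 residual degrees of freedom. The variance of each gene was also drawn toward that of other genes, with 14.8 prior degrees of freedom in neutrophils and 3.86 in monocytes/macrophages. On simulated data with 200 genes changed by a log2 of 2, the neutrophil fits recovered 54.5% to 77% and the monocyte/macrophage fits 88.5% to 93.5%. The simulated coefficient of variation was 25%, where the real sums gave 30.9% in neutrophils and 20.1% in monocytes/macrophages. The simulation held no difference between the experiments, so these shares need not hold for the real sums. Poisson intervals (95%) and floors cover counting error only. Motifs were searched in RefSeq promoters of GRCm38.p6. Of the planned motifs, 1 is not reported here.

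The 9 genes, the pathway lists and the markers were chosen with earlier results of these data known. From each pathway list the text names, per class, up to 3 called genes of largest change with a mean of at least 50 CPM and the same sign in both experiments, and from the likeness ranking the 3 genes of highest r per member, computed on log2(CPM + 10). Alternatives were other scalings, filters, tools, class rules and leaving out each sum.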

Additional observations from a re-analysis of the deposited data

How the results depend on the processing

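Counts of the 9 genes called moved with several choices, and the count over all genes is given after each. In neutrophils from day 1 to day 3 (1 called, 144 of all genes), library totals alone (436), no experiment term (0) and classes from each cell's own markers (5) each gave 0, and leaving out 1 sum gave 0 to 2 (57 to 708). For day 5 against day 1 (2 called, 431 of all genes) no experiment term gave 0 (0), own markers gave 1 (178) and leaving out 1 sum gave 0 to 4 (19 to 968). In monocytes/macrophages from day 1 to day 3 (0 called, 36 of all genes), no filter on low counts gave 3 (517), DESeq2 3 (451), a fit of only the 2 days 1 (140), own markers 1 (203), and leaving out 1 sum 0 to 7 (0 to 2413). For day 5 against day 1 (4 called, 1005 of all genes) no experiment term gave 0 (0), only the 2 days gave 1 (200), and leaving out 1 sum gave 1 to 7 (262 to 3374). From day 3 to day 5 (0 called, 0 of all genes) only the 2 days gave 5 (1369) and leaving out 1 sum 0 to 6 (0 to 1511), whereas in neutrophils every alternative gave 0. For the difference between the classes from day 1 to day 5 (0 called, 27 of all genes), library totals alone called Pdcd1lg2 (1 of the 9, 736 of all genes), and no filter called Pdcd1lg2 and Selplg (2 of the 9, 444 of all genes). The cause was not tested. A fit without 1 sum assumes that the lone sum of that day varies like the others.

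Of 504 comparisons of a log2 change with its alternative, 407 kept direction and side of the threshold, 34 gained a call, 29 lost one and 34 changed sign, none of the last past the threshold in either fit. With library totals alone these were, in neutrophils, Selplg 0.44, Itgb2 0.37 and Pdcd1lg2 0.32 on day 3 against day 1, and Itgb2 0.54, Itgal 0.75 and Pdcd1lg2 0.76 on day 5, and, in monocytes/macrophages, Icam1 0.15 and Itgb2 0.047 on day 3 and Icam1 0.14 on day 5. Own markers gave 0.43 for Selplg (neutrophils, day 3) and -0.0062 for Itgal (monocytes/macrophages, day 3), and no filter gave 0.015 for Icam1 (monocytes/macrophages, day 3). Leaving out 1 sum on day 3 against day 1 gave neutrophil ranges of -1.19 to 1.00 for Selplg, -0.72 to 0.91 for Icam1, -0.36 to 1.44 for Itgal, -0.083 to 1.49 for Itga4 and -1.01 to 0.073 for Pdcd1lg2. On day 5 against day 1 they were -1.98 to 0.22 for Selplg, -0.48 to 0.70 for Icam1, -0.65 to 1.15 for Itgal, -0.30 to 1.27 for Itga4 and -2.18 to 0.38 for Pdcd1lg2. In monocytes/macrophages they were -0.19 to 0.086 for Icam1, -0.50 to 0.19 for Itgb2 and -0.36 to 1.63 for Itgal on day 3, and -0.22 to 0.069 for Icam1 and -0.14 to 1.08 for Itga4 on day 5. The mean log2 ratios of neutrophils to monocytes/macrophages were recomputed over the same pairs with own markers or a mitochondrial share of up to 20%. All 27 moved by less than their spread. All 36 levels over the 7 hashtags together, recomputed with own markers or a hashtag share of 80%, stayed within their counting intervals. Single hashtags were not compared in this way. With own markers, hashtag 7 neutrophils went from 62.4 to 45.8 CPM of Icam1 and from 1161 to 1239 CPM of Selplg. The highest Icam1 ratio of the classes in a hashtag went from 1.04 to 0.719. The experiment term is the block that pairs the days of an experiment, and the fit without it, the unpaired one, called 0 genes in each contrast of either class.

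Depth limits the neutrophil values of the CD45+ libraries most, where Itga4 had 4, 3 and 1 UMIs and Cd274 on day 5 had 3.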

Other observations

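Other leukocytes of the CD45+ libraries carried these transcripts too, summed over all 5 libraries. NK cells (91 cells) held 965 CPM of Selplg, T cells (141 cells) 660 CPM, dendritic cells (161 cells) 499 CPM and B cells (1018 cells) 80.9 CPM, so that the 4 classes stood in that order for the P-selectin ligand. Dendritic cells held 65.2 CPM of Cd274 and 38.1 CPM of Pdcd1lg2 (66 UMIs), and NK cells held 66.4 CPM of Pdcd1lg2 (28 UMIs) and 40.3 CPM of Cd274 (17 UMIs). Icam1 was at 180 CPM in NK cells, 89.9 CPM in dendritic cells, 42.5 CPM in T cells and 24.6 CPM in B cells. Itgal was at 159 CPM in NK cells and 73.5 CPM in T cells. Itgam was at 106 CPM in dendritic cells and at 13.1 CPM (8 UMIs) in T cells.

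Erythroid cells had low levels in the same libraries. Their 51 cells and 519225 UMIs held 30.8 CPM of Itgb2, 21.2 CPM of Selplg and of Cd44, 7.70 CPM of Icam1 (4 UMIs) and 5.78 CPM of Itgam. Itga4, Itgal and Cd274 had 0 UMIs there, which allows a level of up to 5.78 CPM (3 counts).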
